A study of Mus musculus with 203 samples.

Results

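Gene expression in dissected airway was compared with that in dissected lung parenchyma after 3 weeks of house dust mite (HDM) exposure, to describe what separates the compartments of an allergen-exposed lung. All libraries titled as airway with HDM at 3 weeks (10 libraries) and as parenchyma with HDM at 3 weeks (10 libraries) were taken, 20 libraries in all and 9.85% of those in the series. HDM is a common aeroallergen, and its extract given through the nose induces an eosinophilic, type 2 airway disease in mice that is used as a model of asthma. According to the labels the mice were female Balb/C, 18 to 20 weeks of age, and HDM was given intranasally on 5 days per week. As background, 11 airway and 12 parenchyma libraries from mice of the same strain, sex and labelled age that received phosphate buffered saline (PBS) for 3 weeks were used, together with 10 airway and 10 parenchyma libraries from mice with HDM and normal air to week 11 (HDM.AIR), in which HDM went on 3 times per week from week 4. No group carried a transgene or a drug. Blunt dissection parted the tissues, so each library holds RNA of a whole piece of tissue, and fewer cells of a type cannot be told apart from less RNA per cell. The library codes, written X and a number, are consecutive for an airway and a parenchyma of the same exposure, but no label says that these come from one mouse. The libraries were therefore treated as separate samples, so p-values measure the spread between them, and a fit with consecutive codes as pairs was run as an alternative.

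The conducting airway carries a lining of ciliated, club, goblet and basal cells on a wall of smooth muscle, cartilage, nerves, glands and bronchial vessels. The parenchyma is made of alveoli, in which flat type I cells exchange gas, type II cells make surfactant, and capillaries, fibroblasts and alveolar macrophages lie beside them. Genes of these cell types therefore serve as a check of the labelled tissue. The parenchyma holds small airways as well, and an airway freed by blunt dissection can keep a rim of alveoli.

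Library totals ranged from 23389979 to 31914697 counts in HDM airways and from 22956284 to 35913730 counts in HDM parenchyma. Markers of the airway lining and of smooth muscle were higher in the airway libraries, but markers of alveolar cells were present in every airway library. Levels are given as CPM, counts scaled to library size. Sftpc, the surfactant protein made by type II cells, ranged from 1332 to 10513 CPM (median 5381) in the airway and from 7701 to 12444 CPM (median 8736) in the parenchyma. It was lower in the airway at an adjusted p under 0.05 but by less than the fold limit used for a call, a log2 fold change (log2FC) of 1 (log2FC -0.84, standard error 0.26, adjusted p = 0.0099, limma-voom with Benjamini-Hochberg adjustment over 17377 genes, as for every adjusted p below). Airway library X63 stood apart with the lowest Sftpc level and the highest summed levels of the smooth muscle and cardiac muscle lists, while airway libraries X23, X103 and X183 lay nearest to the parenchyma. Many counts that rest on library X63, or on the 3 airway libraries that lay farthest from the parenchyma (X63, X83 and X123), are given with and without them. This was not done for every count, so a count given once is not thereby stable.

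Of 17377 genes tested, 1496 differed between HDM airway and HDM parenchyma (8.61%), at an adjusted p under 0.05 and a log2FC of at least 1 in size. Of these 1390 were higher in the airway (8.00% of the genes tested) and the others lower (0.610%). At an adjusted p under 0.05 with any log2FC, 3392 genes were higher (19.5%) and 2904 lower (16.7%), so the genes on the parenchyma side were nearly as many but had smaller differences. The median absolute log2FC of the called genes was 1.66 among those higher in the airway, with a largest value of 7.98, and 1.14 among those lower, with a largest value of 2.14. All 10 airway libraries lay above all 10 parenchyma libraries for 673 genes (3.87%) and below them for 17 genes (0.0978%). Among called genes these were 550 and 2, and the 2 were Glp1r and Cdh16. The strand of the reads is not given in the sources used here, so for the 39 and 7 called antisense genes the reads cannot be assigned to one strand.

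The number of genes called lower was the less stable one. It was 0.610% of the genes tested with all libraries, 0.311% without airway library X63 and 0.944% without airway library X183, while the number called higher went from 1172 to 1508 for the same libraries. Without the 3 airway libraries farthest from the parenchyma, 843 genes were called higher and 32 lower. With consecutive codes as pairs 1519 were called higher and 70 lower. Genes were tested where 9 libraries reached the CPM that 10 counts give in a library of median size. The study's filter can also be read as a CPM of 10 itself, which left 11580 genes, of which 474 were called higher and 54 lower.

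On the first principal component of the 20 libraries, which held 70.1% of the variance of the 500 most variable genes, airway libraries scored 27.05 ± 23.98 (SD, n = 10) and parenchyma libraries -27.05 ± 4.63 (SD, n = 10). The groups did not overlap (2-sided permutation test of 100000 resamples, p = 2e-05, the smallest they can give, adjusted p = 4e-05). The airway libraries were spread from -1.91 (library X183) to 66.9 (library X63), and the parenchyma libraries from -33.2 to -19.9. The second component held 7.00% of the variance and did not separate the groups (permutation p = 0.697). Among the genes called higher, the median SD of log2 CPM over the 10 airway libraries was 0.765, against 0.415 over the 10 parenchyma libraries, and over all genes these were 0.255 and 0.198.

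**Figure D1:**
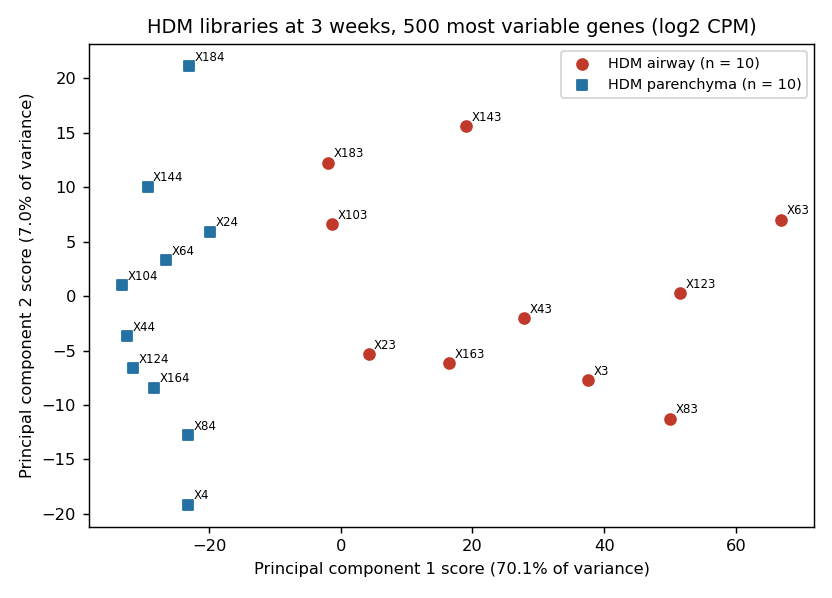
Scores of the 20 HDM libraries at 3 weeks on the first component (x axis, 70.1% of the variance) and the second component (y axis, 7.0%) of the 500 most variable genes, with library codes beside the points. All airway libraries lie to the right of all parenchyma libraries, and the airway libraries are spread from -1.91 to 66.9 on the x axis.

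Across the 10 airway libraries, airway genes were high where Sftpc was low. Foxj1, which drives the making of motile cilia, had a Pearson r with Sftpc of -0.896 (permutation p = 0.0004, adjusted over 7 relations 0.0028) and a Spearman rho of -0.855 (p = 0.00288, adjusted 0.0101). Without the 2 libraries farthest from the median of Sftpc, r was -0.828. For the smooth muscle gene Acta2, r was -0.817 (adjusted permutation p = 0.00999), rho was -0.782 (adjusted p = 0.0248), and r fell to -0.512 without those 2 libraries. For Myh6, a myosin of heart muscle, r was -0.784 (adjusted permutation p = 0.00999), rho was -0.709 (adjusted p = 0.0468), and r was -0.594 without the 2 libraries, so the relations of Acta2 and Myh6 rested in part on them. All of these values share the same libraries and the same total count.

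**Figure D2:**
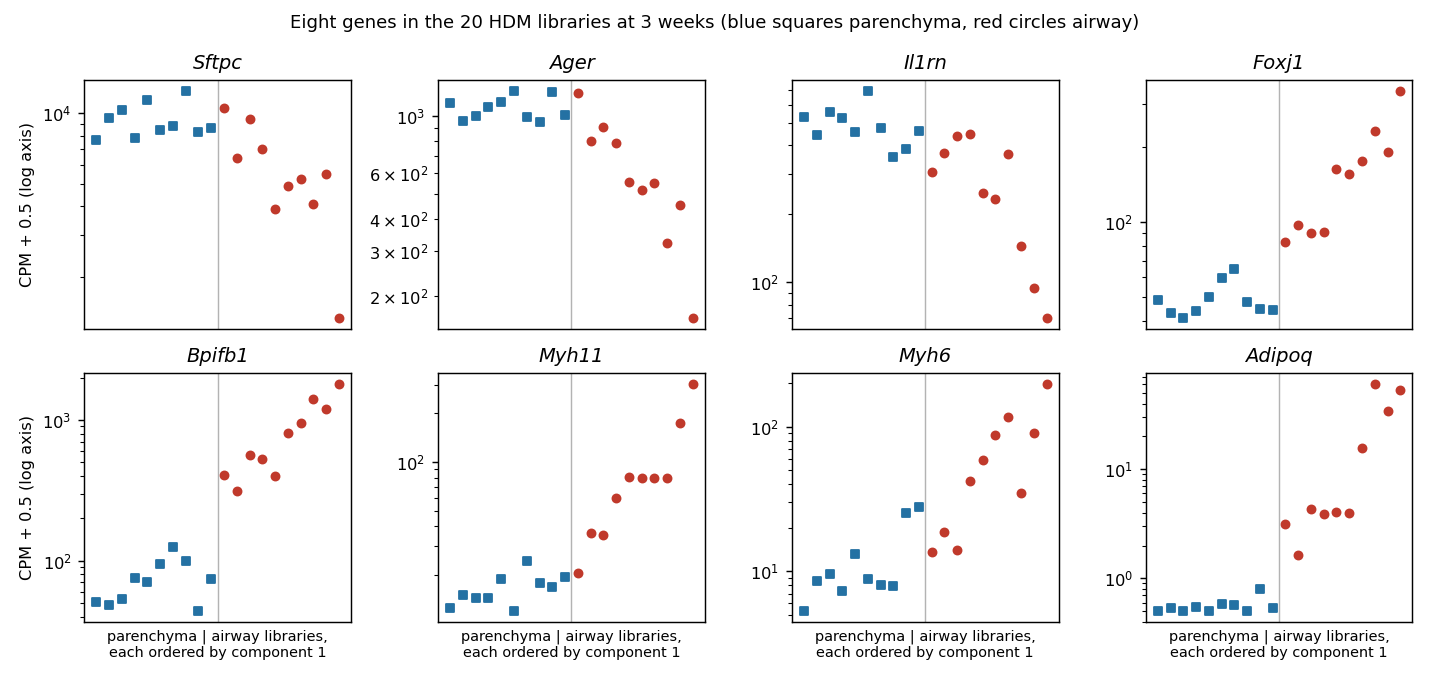
CPM plus 0.5 (log y axis) of 8 genes in each HDM library, with parenchyma libraries as blue squares and airway libraries as red circles, each ordered along the x axis by the first component. Sftpc, Ager and Il1rn fall towards the right among airway libraries, while Foxj1, Bpifb1, Myh11, Myh6 and Adipoq rise.

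The genes with the largest differences among called, non-overlapping protein-coding genes with a mean of at least 10 CPM in the airway were, in order of log2FC, Cfd, Car3, Adipoq, Krt5, Sult1c1, Krt15, Serpinb11 and Slc5a8, from 7.98 to 5.65. The first 3 are genes of fat cells, and the keratins are genes of basal cells. Cfd, which encodes complement factor D, a product of fat cells (chr10:79890853-79892655, plus strand, mm10), ranged from 5.93 to 170 CPM (median 16) in the airway and from 0 to 1.39 CPM (median 0.0899) in the parenchyma. All 10 airway libraries lay above all parenchyma libraries (log2FC 7.98, standard error 1.81, adjusted p = 0.00063). Krt5, the keratin that defines basal cells (chr15:101707070-101712898, minus strand, mm10), ranged from 3.13 to 70.2 CPM (median 10) and from 0 to 1.06 CPM (median 0.0736), again without overlap (log2FC 7.23, standard error 1.67, adjusted p = 0.00074). Krt15, a further basal cell keratin, ranged from 2.59 to 156.02 CPM (median 10.8) against 0 to 1.15 CPM (median 0.182) (log2FC 6.83, standard error 1.79, adjusted p = 0.0027). The smallest p-values belonged to genes with smaller differences and less spread. Prom1, a protein of membrane protrusions (chr5:43993620-44102032, minus strand, mm10), ranged from 111.2 to 556 CPM (median 166.6) in the airway and from 30.7 to 51.4 CPM (median 39.9) in the parenchyma (log2FC 2.26, standard error 0.19, adjusted p = 1.1e-10). Bpifb1, a secreted protein of the mucosal lining (chr2:154190818-154220369, plus strand, mm10), ranged from 312 to 1790 CPM (median 689) against 43.2 to 123.97 CPM (median 72.1) (log2FC 3.38, standard error 0.30, adjusted p = 1.7e-10).

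Ciliated cell genes were higher in the HDM airway almost without exception: 29 of 34 tested members of the list were called higher and 0 lower, 33 were higher at an adjusted p under 0.05 with any log2FC, and the list's median log2FC was 1.60, beside a median of -0.0029 over all genes. The summed level of the list ranged from 924 to 3295 CPM (median 1636) in the airway and from 450 to 732 CPM (median 546) in the parenchyma. Foxj1 ranged from 82.3 to 336 CPM (median 158.7) in the airway and from 40.7 to 64.2 CPM (median 45.6) in the parenchyma, with every airway library above every parenchyma library (log2FC 1.61, standard error 0.18, adjusted p = 9.9e-09). Dnah5, a heavy chain of the outer dynein arm that bends the cilium, ranged from 42.6 to 167.6 CPM (median 80.6) and from 13.5 to 35.4 CPM (median 20.7) (log2FC 1.91, standard error 0.20, adjusted p = 3.4e-09). Hydin, a protein of the central pair of the cilium, ranged from 11.5 to 49.2 CPM (median 23.1) and from 2.88 to 7.77 CPM (median 5.11) (log2FC 2.13, standard error 0.25, adjusted p = 3.2e-08). These groups did not overlap either. Tppp3, a tubulin polymerisation factor, lay at the fold limit (log2FC 1.07, standard error 0.14, adjusted p = 1.7e-07) and fell inside it without airway library X63 or X83, where its lowest log2FC was 0.95. In Cfap43 the difference passed the test but not the fold limit (log2FC 0.83, standard error 0.13, adjusted p = 2.4e-06).

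Cilium genes are switched on together by Foxj1 and the RFX factors, which bind a palindrome called the X-box. The start regions of the ciliated cell list that hold this motif are shown, although the choice of the list did not use sequence. In RefSeq windows from 250 bases before to 50 after the gene start (GRCm38.p6), 31 of the 35 members had a window and 12 of these held an RFX X-box on either strand (38.71%), beside 762 of all 27025 genes (2.82%). Of the 12, Ccno was not called and the other 11 were called higher in the HDM airway. The stretches of 5 of them are printed 5′ to 3′ on the strand of the gene, with the X-box in capitals.
Dnaic2, outer dynein arm chain, chr11:114727371-114727413, plus strand: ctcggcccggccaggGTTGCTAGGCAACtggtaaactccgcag
Cfap44, cilium protein, chr16:44394757-44394798, plus strand: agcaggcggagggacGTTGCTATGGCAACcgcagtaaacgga
Hydin, central pair protein, chr8:110266941-110266976, plus strand: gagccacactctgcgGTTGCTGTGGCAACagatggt
Pifo, cilium protein, chr3:106001498-106001532, minus strand: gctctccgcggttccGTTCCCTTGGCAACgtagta
Spag16, central pair protein, chr1:69826852-69826895, plus strand: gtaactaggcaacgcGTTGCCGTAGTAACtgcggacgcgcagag
The motif began 33, 27, 21 and 20 bases before the gene start in the first 4, and farther upstream in Spag16. A match is a description of the letters, and binding was not measured.

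Secretory cell genes were higher in the airway by unequal amounts. In the club and secretory cell list 13 of 25 members were called higher and 0 lower (median log2FC 1.06). Scgb1a1, the club cell secretoglobin, ranged from 12246 to 25202 CPM (median 17349) in the airway and from 9192 to 16649 CPM (median 11725) in the parenchyma. Its libraries overlapped, and its difference was inside the fold limit (log2FC 0.59, standard error 0.17, adjusted p = 0.0072). Scgb3a1, a secretoglobin of larger airways, ranged from 833 to 9363 CPM (median 1574) against 183.8 to 529 CPM (median 272) without overlap (log2FC 2.80, standard error 0.33, adjusted p = 2.8e-08). Bpifa1, an antimicrobial protein of the upper airway lining, ranged from 188.4 to 5419 CPM (median 575) against 4.48 to 87.7 CPM (median 21.8) (log2FC 5.53, standard error 0.59, adjusted p = 3.5e-09). Cyp2f2, a cytochrome P450 of club cells, was called (log2FC 1.06, standard error 0.17, adjusted p = 5.0e-06), but fell inside the fold limit without airway library X63, X83 or X123 or parenchyma library X124 (lowest log2FC 0.94). Cbr2, a carbonyl reductase, did not reach the limit (log2FC 0.67, adjusted p = 0.00031).

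Goblet cells make the gel-forming mucins that fill asthmatic airways. Of 25 tested goblet cell and mucus genes 16 were called higher in the HDM airway and 0 lower, with a median log2FC of 2.00, and 15 were still called higher without libraries X63, X83 and X123. Muc5b, a gel-forming mucin, ranged from 166.3 to 566 CPM (median 318) in the airway and from 45.2 to 104.01 CPM (median 69.3) in the parenchyma, and the groups did not overlap (log2FC 2.25, standard error 0.26, adjusted p = 1.3e-08). Clca1, which is secreted with mucus, varied more between libraries: it ranged from 250 to 6781 CPM (median 3569) and from 50.9 to 1867 CPM (median 497), and 6 airway libraries lay above all parenchyma libraries (log2FC 2.48, standard error 0.70, adjusted p = 0.0049). Ern2, the stress sensor of mucin-making cells, ranged from 1.32 to 11.4 CPM (median 8.38) against 0.161 to 1.33 CPM (median 0.498) (log2FC 3.51, standard error 0.48, adjusted p = 2.9e-07). The anion exchanger Slc26a4 went the other way inside the fold limit, at 17.5 to 275 CPM (median 107.3) in the airway and 89.1 to 332 CPM (median 187.9) in the parenchyma (log2FC -0.79, standard error 0.29, adjusted p = 0.032).

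Of 21 tested basal and squamous cell genes 12 were called higher and 0 lower (median log2FC 1.63), and 8 were called higher without libraries X63, X83 and X123. Submucosal gland genes were called higher in 3 of 9, led by the antimicrobial proteins Ltf, at 315 to 3388 CPM (median 691) against 68.9 to 195.4 CPM (median 116.5) (log2FC 2.88, standard error 0.30, adjusted p = 3.1e-09), and Dmbt1, at 2.78 to 233 CPM (median 19.2) against 0.735 to 5.23 CPM (median 2.36) (log2FC 3.29, standard error 0.73, adjusted p = 0.00048). Not all secreted defence genes followed. Lcn2, an iron-sequestering protein, overlapped throughout, at 1423 to 3720 CPM (median 1975) and 1560 to 4870 CPM (median 2099) (log2FC -0.21, adjusted p = 0.54), and lysozyme, Lyz2, was lower in the airway inside the fold limit (log2FC -0.58, standard error 0.15, adjusted p = 0.003). Pigr, which carries IgA across the lining, was higher in 9 of 10 airway libraries than in all parenchyma libraries, but its log2FC of 0.76 was inside the limit (adjusted p = 0.00055). Of the 14 tested genes of tuft cells, neuroendocrine cells and ionocytes 4 were called higher and 0 lower, the largest being Trpm5, a taste channel of tuft cells, at 0.163 to 1.61 CPM (median 0.414) against 0 to 0.172 CPM (median 0.0394) (log2FC 3.02, standard error 0.61, adjusted p = 0.00014).

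Genes of smooth muscle, which narrows the airway when it contracts, were higher in the airway. Of 25 tested genes 17 were called higher in the HDM airway and 0 lower, and 24 were higher at any log2FC (list median 1.64). The summed level ranged from 556 to 3221 CPM (median 1058) in the airway and from 453 to 583 CPM (median 499) in the parenchyma, so the lowest airway library lay inside the parenchyma range. Myh11, smooth muscle myosin, ranged from 20 to 301 CPM (median 79.3) and from 11.4 to 24 CPM (median 15.5), with 9 of 10 airway libraries above all parenchyma libraries (log2FC 2.16, standard error 0.39, adjusted p = 3.9e-05). Acta2, smooth muscle actin, ranged from 44.3 to 417 CPM (median 123.2) against 32.6 to 50 CPM (median 41) (log2FC 1.64, standard error 0.34, adjusted p = 0.0002), and Actg2, enteric smooth muscle actin, from 6.09 to 86.7 CPM (median 23.9) against 3.93 to 7.98 CPM (median 5.14) (log2FC 2.23, standard error 0.56, adjusted p = 0.0019). Mylk, the kinase that starts contraction and a gene used by other cells too, differed little (log2FC 0.34, adjusted p = 0.016). Without libraries X63, X83 and X123 the count of the list was 11. The list also holds genes that heart muscle uses, among them Actc1 and Casq2 (log2FC 4.36, adjusted p = 0.014 for Casq2). The part of heart muscle in the count was not tested.

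Smooth muscle and heart muscle genes are switched on by serum response factor at the CArG box. Of the 25 members 20 had a RefSeq window and 2 of these held a CArG box (10%), beside 488 of all 27025 genes (1.806%). These were Myl9, the regulatory light chain, and Actc1, cardiac actin, which smooth muscle shares with the heart, and both were called higher. They are printed with the CArG box in capitals, which began 47 bases before the gene start in Actc1 and farther upstream in Myl9.
Myl9, chr2:156775288-156775327, plus strand: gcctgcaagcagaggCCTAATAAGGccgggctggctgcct
Actc1, chr2:114052898-114052937, minus strand: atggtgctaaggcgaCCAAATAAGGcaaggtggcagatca

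Receptors that set airway tone are the targets of bronchodilators and of mediators. Of 23 tested 4 were called higher in the airway and 0 lower, where 8.00% and 0.610% of all genes were. At any log2FC 5 were higher, 4 were lower and 14 did not pass the test (list median -0.02). The count called higher was the same without libraries X63, X83 and X123. Tacr1, the substance P receptor, ranged from 9.63 to 34.9 CPM (median 18.2) and from 1.68 to 3.6 CPM (median 2.41) without overlap (log2FC 2.87, standard error 0.28, adjusted p = 8.5e-10). Chrm2, the muscarinic receptor that restrains acetylcholine release, ranged from 2.1 to 37.5 CPM (median 8.64) against 0.635 to 1.74 CPM (median 1.28) (log2FC 2.64, standard error 0.64, adjusted p = 0.0013). Chrm1 was called as well (log2FC 2.29, standard error 0.40, adjusted p = 2.3e-05), as was Ptgdr, a prostaglandin D2 receptor (log2FC 1.78, standard error 0.55, adjusted p = 0.01). Nr3c1, the glucocorticoid receptor and a target of inhaled therapy, was lower in the airway inside the fold limit, at 101.6 to 148.8 CPM (median 125.8) in the airway and 133.6 to 158.9 CPM (median 146.2) in the parenchyma (log2FC -0.22, adjusted p = 0.0091).

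Among mesenchymal genes, 11 of 27 members of the adventitial and peribronchial fibroblast list were called higher in the airway and 0 lower (median log2FC 0.83). Dcn, a proteoglycan that binds collagen, ranged from 105.4 to 1012 CPM (median 254) and from 31.6 to 76.9 CPM (median 46.7) without overlap (log2FC 2.41, standard error 0.28, adjusted p = 1.8e-08), and Sfrp4, an inhibitor of Wnt ligands, from 1.29 to 7.24 CPM (median 4.02) against 0.0423 to 0.553 CPM (median 0.223) (log2FC 3.96, standard error 0.57, adjusted p = 7.0e-07). In contrast, 0 of 32 collagen and matrix genes were called in either direction by limma-voom, edgeR or DESeq2, while 10 were higher and 8 lower at an unadjusted p under 0.05, and the list's median was 0.07. Col3a1, a fibrillar collagen, was higher in the airway by a log2FC of 0.52, adjusted p = 0.019, and fibronectin, Fn1, ranged from 163.9 to 876 CPM (median 509) and 398 to 773 CPM (median 651) (log2FC -0.47, adjusted p = 0.069). Of 22 alveolar fibroblast genes 0 were called higher and 1 lower by limma-voom, and 0 in either direction by edgeR or DESeq2. At any log2FC 11 were lower and 3 higher (list median -0.30). The defining markers Npnt and Inmt were lower inside the limit (log2FC -0.70, adjusted p = 0.0021, and -0.65, adjusted p = 0.0008). The marker Ces1d was higher inside the limit (log2FC 0.28, adjusted p = 0.039). Its adjusted p was no longer under 0.05 in 12 of 20 fits that left out 1 library (largest 0.108).

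Genes of tissues that lie around the large airways were higher in the airway libraries. Of the list members tested, 9 of 16 cartilage genes, 21 of 27 cardiac muscle genes, 14 of 20 adipose genes, 7 of 17 Schwann cell and nerve genes, 4 of 14 skeletal muscle genes and 3 of 7 thyroid and parathyroid genes were called higher, and 0 of any of them lower by limma-voom, edgeR or DESeq2. At an unadjusted p under 0.05, 0, 1, 0, 4, 1 and 1 were lower. Without libraries X63, X83 and X123 the counts called higher were 3, 7, 10, 4, 1 and 1. Chad, a cartilage matrix protein, ranged from 23.7 to 98.8 CPM (median 49.5) and from 7.42 to 12.7 CPM (median 9.38) without overlap (log2FC 2.40, standard error 0.23, adjusted p = 8.8e-10). Acan, the aggrecan of cartilage, was read in 9 of 10 airway libraries and in 1 parenchyma library with 1 count. Adipoq, the hormone of fat cells, ranged from 1.15 to 59.5 CPM (median 3.71) against 0 to 0.29 CPM (median 0.0384) (log2FC 7.32, standard error 1.88, adjusted p = 0.0022). Myl7, a light chain of atrial muscle, ranged from 2.67 to 132.6 CPM (median 24.1) against 0.115 to 11.2 CPM (median 0.669) (log2FC 4.75, standard error 1.23, adjusted p = 0.0023). In mice such muscle also forms a sleeve around the pulmonary veins. Of the defining markers of other tissues, Myh4, Rag1, Ptcra, Matn1 and Sox10 did not pass the filter on low counts, and 0 of 15 thymocyte genes were called by limma-voom, edgeR or DESeq2, with 2 higher and 2 lower at an unadjusted p under 0.05. The part of these tissues in the other airway differences was not tested. Libraries X63, X83 and X123 had the highest summed levels of the cartilage and adipose lists and also of the ciliated cell and smooth muscle lists. Without these libraries 28 of 34 ciliated cell genes and 15 of 25 goblet cell genes were still called higher.

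Alveolar epithelial genes were lower in the airway by small amounts. Of 20 type I cell genes 17 were lower at an adjusted p under 0.05, but 1 passed the fold limit (list median -0.68). The count past the limit was 0 without libraries X63, X83 and X123. Of 26 type II cell genes 17 were lower (19 at an unadjusted p) and 0 passed the limit by limma-voom, edgeR or DESeq2 (list median -0.58). The summed level of the type II list ranged from 6624 to 30190 CPM (median 19460) in the airway and from 25175 to 34012 CPM (median 28600) in the parenchyma, so the highest airway libraries held as much as the parenchyma. Igfbp2, an IGF-binding protein of mature type I cells and the 1 called member, ranged from 4.28 to 34.2 CPM (median 13.8) and from 26.7 to 47.5 CPM (median 33.8) (log2FC -1.28, standard error 0.31, adjusted p = 0.0013). Ager, the receptor for glycation end products and the classical type I marker, ranged from 164.6 to 1225 CPM (median 552) against 947 to 1250 CPM (median 1044), with 9 of 10 airway libraries below all parenchyma libraries (log2FC -0.96, standard error 0.26, adjusted p = 0.0032). It passed the fold limit when airway library X23, X103, X163 or X183 was left out (largest change to -1.08). Abca3, the lipid pump of surfactant bodies, did not differ beyond its spread (log2FC -0.09, adjusted p = 0.58).

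Among the called genes, 2 had every airway library below every parenchyma library. Glp1r, the GLP-1 receptor (chr17:30901817-30940791, plus strand, mm10), ranged from 0.135 to 1.08 CPM (median 0.869) in the airway and from 1.48 to 3.85 CPM (median 2.03) in the parenchyma (log2FC -1.59, standard error 0.40, adjusted p = 0.002). Cdh16, a cadherin (chr8:104601911-104624396, minus strand, mm10), was chosen after its values were seen, at 0.606 to 5.81 CPM (median 3.78) against 5.93 to 8.81 CPM (median 6.25) (log2FC -1.002, standard error 0.29, adjusted p = 0.0063). It lay at the fold limit and fell inside it without airway library X63 or X83 or parenchyma library X84, X124 or X164, where its smallest change was -0.74. The lowest p-values on the parenchyma side belonged to genes inside the limit: Bcl2a1a, a survival gene of leukocytes, at 28.4 to 81.5 CPM (median 52.4) against 72.7 to 113.6 CPM (median 92.6) (log2FC -0.89, standard error 0.13, adjusted p = 7.3e-07), and Dnase1l1, a DNase-like protein, at 19.1 to 46.5 CPM (median 32.7) against 43.4 to 53.4 CPM (median 49.6) (log2FC -0.61, standard error 0.09, adjusted p = 8.3e-07). Bcl2a1a has near-identical copies, so its counts are uncertain.

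Of 17 general capillary genes 13 were lower in the airway at an adjusted p under 0.05 and 1 passed the fold limit. In the aerocyte list, the capillary cells that face the gas exchange surface, 2 of 16 were called lower, and 0 without libraries X63, X83 and X123. At any log2FC 7 of its genes were lower and 0 higher, and 9 did not pass the test (list median -0.29). Car4, a carbonic anhydrase on the capillary surface, ranged from 16.8 to 141.1 CPM (median 72.2) and from 97.7 to 197.3 CPM (median 155.7) (log2FC -1.30, standard error 0.26, adjusted p = 0.00014). The other defining aerocyte markers, Ednrb and Apln, did not differ beyond their spread (log2FC 0.28, adjusted p = 0.26, and -0.27, adjusted p = 0.32). Tmem100, a BMP-dependent endothelial gene chosen after its values were seen, ranged from 13.4 to 102.9 CPM (median 37.4) against 61.9 to 123.6 CPM (median 100.8) (log2FC -1.26, standard error 0.24, adjusted p = 9.7e-05). Of 14 lymphatic genes 6 were called higher and 0 lower, while 3 were lower at any log2FC and the list median was 0.16. Of 23 genes of arterial, venous and systemic endothelium 3 were called higher and 0 lower, with 8 higher and 4 lower at any log2FC (list median 0.19) and 1 called without libraries X63, X83 and X123. Mmrn1, of lymphatic vessels, ranged from 12.5 to 54.2 CPM (median 16.6) against 5.57 to 9.87 CPM (median 7.2) without overlap (log2FC 1.45, standard error 0.27, adjusted p = 3.7e-05), and Ccl21a, which draws T cells and dendritic cells to lymphatics, from 54.2 to 201.9 CPM (median 74.3) against 27.4 to 64 CPM (median 33.2) (log2FC 1.23, standard error 0.27, adjusted p = 0.00039). Ccl21a has near-identical copies, so its counts are uncertain. Vwf, a clotting factor of larger vessels, did not differ beyond its spread (log2FC 0.24, adjusted p = 0.28).

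Genes of alveolar macrophages, which live on the alveolar surface, were lower in the airway. Of 21 alveolar macrophage genes 7 were called lower in the HDM airway and 2 higher, and 16 were lower at any log2FC (list median -0.85). Without libraries X63, X83 and X123 the counts called were 4 lower and 1 higher. Krt79, a keratin that marks alveolar macrophages in the mouse, ranged from 3.3 to 33.2 CPM (median 15.8) and from 27.7 to 59.3 CPM (median 32.8) (log2FC -1.43, standard error 0.28, adjusted p = 0.00012). Marco, the scavenger receptor of alveolar macrophages, ranged from 4.07 to 19.3 CPM (median 6.8) against 11.6 to 56.1 CPM (median 18.4) (log2FC -1.48, standard error 0.33, adjusted p = 0.00054), and Fabp1, a fatty acid carrier, from 0.168 to 4.21 CPM (median 0.813) against 1.39 to 4.82 CPM (median 3.2) (log2FC -1.82, standard error 0.55, adjusted p = 0.008). Chil3, the chitinase-like protein of macrophages in type 2 inflammation, overlapped between the compartments, at 241 to 10643 CPM (median 3282) and 2441 to 22841 CPM (median 6769) (log2FC -1.23, adjusted p = 0.061). Of 26 interstitial macrophage and monocyte genes 2 were called higher (8.00% of all genes were) and 0 lower, but at any log2FC 13 were lower and 2 higher (list median -0.34). Cd163, the haemoglobin scavenger receptor of perivascular macrophages, ranged from 2.73 to 56.7 CPM (median 9.69) against 1.1 to 7.81 CPM (median 2.6) (log2FC 1.83, standard error 0.44, adjusted p = 0.0012). In the alternatively activated list 2 of 22 were called in each direction, and 0 in either without libraries X63, X83 and X123. At any log2FC 9 were lower and 3 higher (list median -0.39). Clec10a, a lectin, was among those called higher, at 5.51 to 60.5 CPM (median 9.46) against 3.63 to 5.98 CPM (median 4.9) (log2FC 1.30, standard error 0.31, adjusted p = 0.0011).

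In the list of epithelial alarmins and cytokines 4 of 27 were called lower and 1 higher, and 0 lower without libraries X63, X83 and X123. At any log2FC 15 were lower and 2 higher (list median -0.33). Il1b, the inflammasome cytokine, ranged from 57.1 to 245 CPM (median 163.5) and from 195.98 to 475 CPM (median 245) (log2FC -1.08, standard error 0.22, adjusted p = 0.00021). Il1rn, its natural receptor antagonist, ranged from 69.5 to 448 CPM (median 275) against 353 to 689 CPM (median 468) (log2FC -1.06, standard error 0.23, adjusted p = 0.00042). Both fell inside the fold limit without airway library X63 or X123, and Il1rn also without X83 (smallest changes -0.95 and -0.88). Il1a, chosen after its values were seen, held its call in every such fit (8.32 to 44.9 CPM (median 30.8) against 35.3 to 96.3 CPM (median 48.2), log2FC -1.18, standard error 0.22, adjusted p = 5.0e-05). The member called higher was Il22ra1, the epithelial subunit of the IL-22 receptor, at 1.34 to 6.53 CPM (median 2.45) against 0.169 to 0.775 CPM (median 0.5) without overlap (log2FC 2.39, standard error 0.35, adjusted p = 1.3e-06). Il33, the alarmin that starts type 2 responses, ranged from 118.96 to 249 CPM (median 137.9) in the airway and 130 to 289 CPM (median 187.4) in the parenchyma (log2FC -0.24, adjusted p = 0.17).

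Further genes of this kind were chosen after their values were seen. Acod1, which makes itaconate in activated macrophages, ranged from 36 to 270 CPM (median 135.5) and from 131.04 to 436 CPM (median 276) (log2FC -1.15, standard error 0.28, adjusted p = 0.0012), and inducible nitric oxide synthase, Nos2, from 14.7 to 311 CPM (median 112.4) against 76.7 to 366 CPM (median 219) (log2FC -1.12, standard error 0.37, adjusted p = 0.016). Clec7a, the beta-glucan receptor of myeloid cells, ranged from 143.3 to 1529 CPM (median 993) against 1336 to 2148 CPM (median 1743) (log2FC -1.04, standard error 0.28, adjusted p = 0.0033). Coagulation factors F7 and F10 were lower as well (log2FC -1.15, adjusted p = 0.00092, and -1.16, adjusted p = 0.00035). Without airway library X63 all 5 genes fell inside the fold limit, at log2FC of -0.98 for Acod1, -0.84 for Nos2, -0.78 for Clec7a, -0.86 for F7 and -0.96 for F10. Nos2 did so also without airway library X83, and Clec7a without airway library X123 or parenchyma library X4.

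Of 36 chemokines 4 were called higher in the HDM airway and 3 lower, where 8.00% and 0.610% of all genes were. At any log2FC 17 were lower and 4 higher (list median -0.52), and 0 were called lower without libraries X63, X83 and X123. Ccl28, a mucosal chemokine that draws IgA plasma cells, ranged from 12.4 to 123.6 CPM (median 25.3) and from 3.2 to 6.65 CPM (median 5.37) (log2FC 2.41, standard error 0.39, adjusted p = 5.5e-06), and the mucosal chemokine Cxcl17 from 79.9 to 364 CPM (median 105.5) against 30 to 57.5 CPM (median 37.4) (log2FC 1.73, standard error 0.19, adjusted p = 8.2e-09). Neither overlapped. On the parenchyma side Ccl17, a ligand of CCR4 on type 2 T cells, ranged from 15.4 to 152.8 CPM (median 33.7) against 24.2 to 190.99 CPM (median 123.6) (log2FC -1.33, standard error 0.32, adjusted p = 0.0011), and Cxcl3, a neutrophil attractant chosen after its values were seen, from 8.89 to 97.7 CPM (median 47.7) against 54 to 195.4 CPM (median 102.9) (log2FC -1.37, standard error 0.28, adjusted p = 0.00016). Of 24 neutrophil genes 2 were called lower and 1 higher, and 0 lower without libraries X63, X83 and X123, while at any log2FC 16 were lower and 1 higher (list median -0.79). Of 17 eosinophil and eotaxin genes 3 were called lower and 0 higher by limma-voom, but 1 lower and 2 higher by edgeR, and 2 lower and 2 higher by DESeq2. At any log2FC 8 were lower and 3 higher (list median -0.55). Among those called lower was Ear2, an eosinophil-associated ribonuclease that macrophages also make, at 16.9 to 205 CPM (median 114.8) against 132.7 to 526 CPM (median 207) (log2FC -1.28, standard error 0.36, adjusted p = 0.0048). Ear2 belongs to a family of near-identical copies, so its counts are uncertain.

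Lymphocyte genes differed by list, and mostly inside the fold limit. At any log2FC 19.5% of all genes were higher in the airway and 16.7% lower. Of 30 T cell and type 2 genes 0 were called by limma-voom, edgeR or DESeq2 in either direction, with 4 higher and 7 lower at an unadjusted p under 0.05. Of 17 cytotoxic lymphocyte genes 0 were called by any of the 3 tools, but 13 were lower at any log2FC and 14 at an unadjusted p (list median -0.62). B cell and plasma cell genes leaned to the airway, with 17 of 30 higher at any log2FC and 3 called (list median 0.65). Igkc, the kappa light chain, overlapped, at 1012 to 3711 CPM (median 1942) and 503 to 1776 CPM (median 979) (log2FC 0.94, adjusted p = 0.083). Of 18 mast cell and basophil genes 8 were called higher and 0 lower, and 3 were called without libraries X63, X83 and X123. Mcpt1, a protease of mucosal mast cells, ranged from 2.2 to 29.4 CPM (median 7.89) against 0.492 to 13.5 CPM (median 2.81) (log2FC 1.33, standard error 0.46, adjusted p = 0.022), and lost its call without parenchyma library X104, where its log2FC was 1.06. Antigen presentation, cell cycle, immediate early and lipid synthesis lists held 0 called genes of 20, 30, 20 and 24 by limma-voom, edgeR or DESeq2. Of them 14, 0, 9 and 10 were lower and 0, 8, 0 and 1 higher at an unadjusted p under 0.05.

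Transcription factors of lung development were divided. Of 27 tested 8 were called higher and 0 lower, with 12 higher and 9 lower at any log2FC and a list median of -0.155, and 3 were called higher without libraries X63, X83 and X123. Sox2, which specifies proximal airway, ranged from 15.1 to 79.1 CPM (median 29) and from 6.93 to 15.1 CPM (median 10) (log2FC 1.61, standard error 0.22, adjusted p = 2.5e-07). Elf3, an epithelial factor, lay near the fold limit (log2FC 1.05, standard error 0.14, adjusted p = 2.5e-07) and fell inside it without airway library X63 or X83 (lowest log2FC 0.91). Of 41 morphogen genes 9 were called higher and 2 lower, where 8.00% and 0.610% of all genes were. By edgeR and by DESeq2 0 were called lower. Only 4 were called higher and 0 lower without libraries X63, X83 and X123. The largest difference among the called members was that of Lgr6, a receptor for R-spondins, at 2.12 to 31.7 CPM (median 8.25) against 0.465 to 2.1 CPM (median 0.89) (log2FC 3.27, standard error 0.62, adjusted p = 6.4e-05). Of 18 ion and water transport genes 4 were called higher and 0 lower. Aqp4, a water channel, ranged from 35.6 to 328 CPM (median 68.5) against 10.7 to 23.4 CPM (median 14.7) (log2FC 2.43, standard error 0.28, adjusted p = 1.5e-08), and Kcne3, a subunit of the potassium channel that supports chloride secretion, from 6.65 to 70.5 CPM (median 12.9) against 1.62 to 6.41 CPM (median 2.37) (log2FC 2.59, standard error 0.47, adjusted p = 3.8e-05). Both were without overlap.

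**Figure D3:**
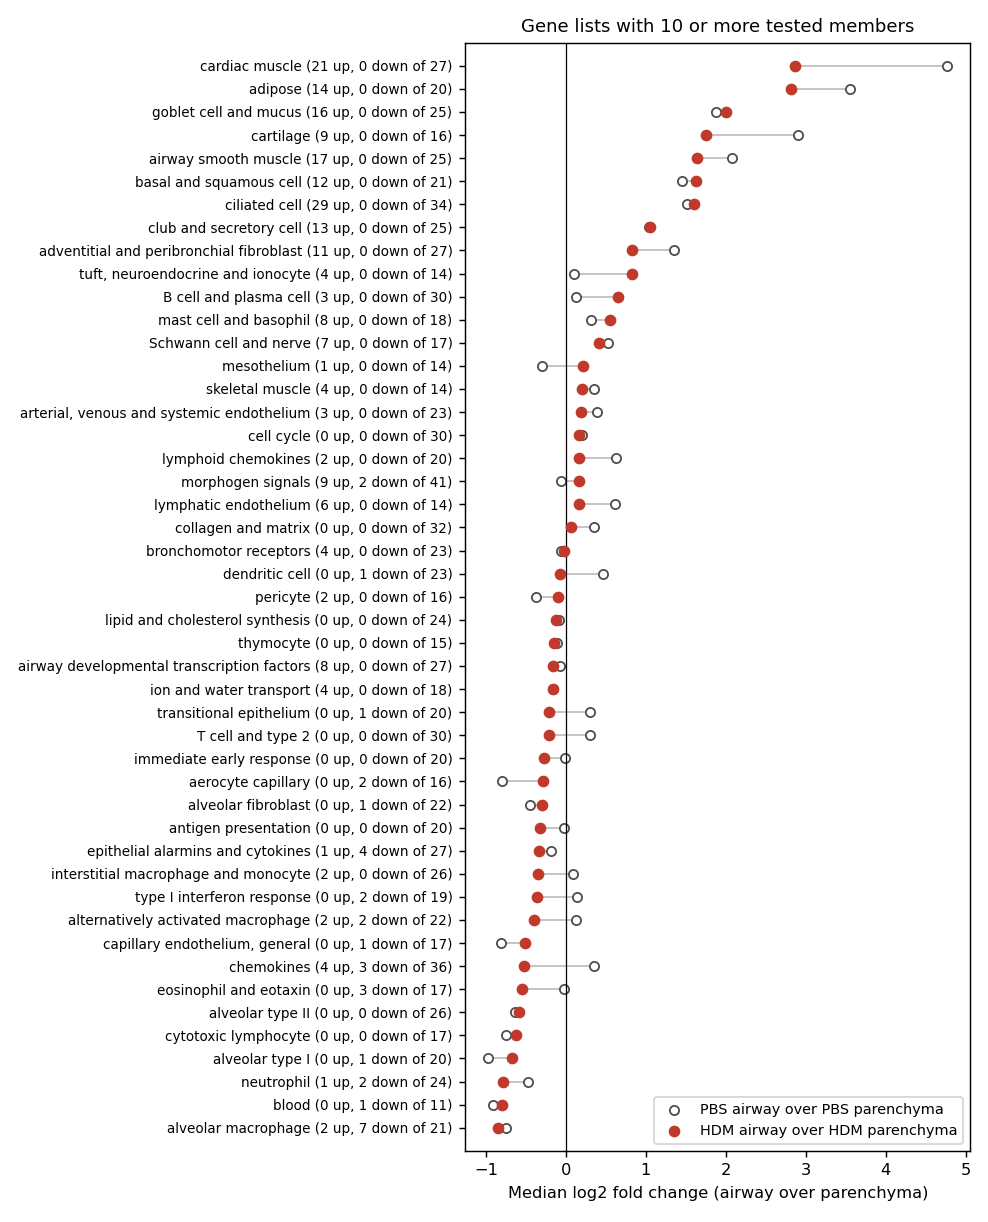
Median log2FC of airway over parenchyma (x axis) for each gene list with at least 10 tested members, under HDM (filled red points) and under PBS (open points), with the numbers of members called higher and lower under HDM beside each list. Under HDM, lists of the airway lining and wall lie to the right of 0 and those of alveolar epithelium, capillaries and alveolar macrophages to the left. The open point of the transitional epithelium list lies to the right.

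The same comparison in PBS mice shared no libraries with the one above, and most genes were divided alike in it. There 1738 genes were higher in the airway (10.0%) and 332 lower (1.91%). Of the 1390 genes higher in the HDM airway 1134 were also called higher in the PBS airway (81.6%), while of the genes lower there 37 were called lower (34.9%). Across genes the 2 differences had a Pearson r of 0.814, in which genes are not independent replicates. In turn, of the genes called lower in the PBS airway 11.1% were called lower in the HDM airway, and of those called higher 65.2% were called higher. Since a call in one exposure and none in the other does not show a difference, the difference of the 2 compartment gaps was tested itself.

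The gap moved towards the airway under HDM for 95 genes (0.547%) and towards the parenchyma for 289 genes (1.66%). At any size of the difference these were 1882 (10.8%) and 1118 genes (6.43%). Of the 289, 206 were called higher in the PBS airway and 26 in the HDM airway, and their median log2FC was 1.43 under PBS and -0.03 under HDM. For 79 of the 289 neither gap was called. By mean CPM 66.4% of the 289 were higher in HDM than in PBS mice in both compartments. How many of these were among the 206 was not counted, nor was this share over all genes. Of the 95, 36 were called higher in the HDM airway and 13 lower in the PBS airway, with median log2FC of 0.83 under HDM and -0.42 under PBS. The number of genes moved towards the airway was sensitive to single libraries, with 46 genes without HDM airway library X123 and 49 without HDM airway library X83.

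**Figure D4:**
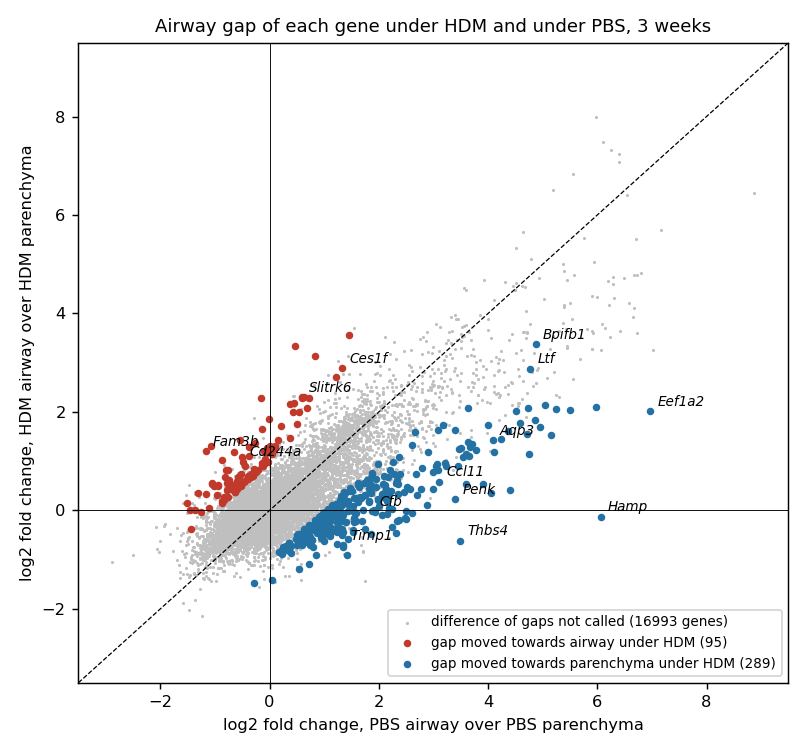
Log2FC of airway over parenchyma under PBS (x axis) and under HDM (y axis) for the 17377 genes tested, with the diagonal as a line. Red points are the 95 genes whose gap moved towards the airway under HDM, blue points the 289 whose gap moved towards the parenchyma, and grey points the other genes, and most blue points lie near 0 on the y axis.

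Complement and chemokine genes were among those whose gap closed. Apart from C1qa and Cd14, the genes described here were chosen after their values were seen. Cfb, complement factor B, ranged from 87.1 to 321 CPM (median 134.4) in the PBS airway and from 22.9 to 62 CPM (median 40.9) in the PBS parenchyma without overlap, and from 549 to 1377 CPM (median 790) and 484 to 1394 CPM (median 957) in HDM airway and parenchyma. Its gap was a log2FC of 1.87 under PBS and -0.02 under HDM (difference -1.89, adjusted p = 7.2e-05). C3, the central complement component, had gaps of 1.30 and 0.21 (difference -1.09, adjusted p = 0.00012). C1qa, C1qb and C1qc, the 3 chains of C1q made by macrophages, had gaps of 1.10, 1.196 and 1.12 under PBS and -0.22, -0.11 and -0.09 under HDM, with differences of -1.32, -1.31 and -1.21 (adjusted p = 7.2e-05, 8.5e-05 and 0.00017). Ccl8, a monocyte chemokine, ranged from 9.06 to 107.97 CPM (median 15.2) and 2.06 to 8.59 CPM (median 4.75) in PBS airway and parenchyma and from 241 to 519 CPM (median 355) and 230 to 404 CPM (median 316) under HDM (difference -1.96, adjusted p = 0.0053). Ccl11, eotaxin, had gaps of 3.11 and 0.58 (difference -2.53, adjusted p = 0.0099). For Cd14, the co-receptor of endotoxin, the gap turned from 0.99 to -0.63 (difference -1.62, adjusted p = 4.8e-06). Adam8, a protease of leukocytes, had gaps of 2.07 and -0.10 (difference -2.16, adjusted p = 1.0e-06).

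The largest differences towards the parenchyma that the fixed rule named belonged to Hamp, Eef1a2, Thbs4, Penk, Actn2 and Apol6. Hamp, the iron hormone hepcidin (chr7:30942368-30944032, minus strand, mm10), ranged from 0.99 to 18.7 CPM (median 2.94) in the PBS airway and from 0 to 0.132 CPM (median 0.0407) in the PBS parenchyma, but from 1.96 to 5.83 CPM (median 2.79) and 1.58 to 6.54 CPM (median 3.85) in the HDM groups, which overlapped fully (difference -6.19, adjusted p = 7.2e-05). Thbs4, a matrix protein of injured tissue and muscle, ranged from 0.354 to 8.5 CPM (median 0.67) and 0 to 0.528 CPM (median 0.0554) in PBS mice and from 5.05 to 41.4 CPM (median 16.8) and 18.2 to 34.9 CPM (median 24.7) in HDM mice (difference -4.10, adjusted p = 0.0058). Penk, the enkephalin precursor, had gaps of 3.40 under PBS and 0.22 under HDM (difference -3.18, adjusted p = 3.3e-05). Eef1a2 and Actn2, both genes of striated muscle, were higher in the PBS airway along with the cardiac list, of which 25 of 27 members were called there.

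Towards the airway, the rule named Slitrk6, Esm1, Ces1f, Bex2, Cd244a and Col17a1. Cd244a, a receptor of NK cells and other leukocytes (chr1:171559193-171609746, plus strand, mm10), ranged from 3.19 to 6.54 CPM (median 4.52) in the PBS airway and 5.53 to 7.82 CPM (median 6.34) in the PBS parenchyma, and from 8.19 to 22.7 CPM (median 11.2) in the HDM airway and 5.22 to 8.05 CPM (median 6.3) in the HDM parenchyma. Its gap was -0.49 under PBS and 0.99 under HDM, where all airway libraries lay above all parenchyma libraries (difference 1.48, adjusted p = 2.8e-05). Ces1f, a carboxylesterase, ranged from 15.6 to 26.1 CPM (median 20.5) and 5.12 to 11.6 CPM (median 7.96) in PBS mice and from 6.07 to 35.9 CPM (median 17.3) and 0.742 to 6.13 CPM (median 1.86) in HDM mice, with the lowest levels in the HDM parenchyma (difference 1.56, adjusted p = 0.011). Esm1 and Bex2 had gaps of -1.51 and -1.02 under PBS, which were 0.16 and 0.51 under HDM at lower levels in both compartments. The 1 gene called in opposite directions was Fam3b, a secreted cytokine-like protein chosen after its values were seen, at 0.395 to 1.31 CPM (median 0.904) and 1.44 to 2.31 CPM (median 1.91) in PBS airway and parenchyma and at 0.755 to 3.7 CPM (median 2.33) and 0.465 to 1.61 CPM (median 0.866) under HDM. Its log2FC was -1.16 under PBS and 1.21 under HDM (difference 2.37, adjusted p = 1.5e-05).

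This difference was called for 2.21% of all genes in either direction. In the ciliated cell, Schwann cell, type I and type II lists it was called for 0 of 34, 17, 20 and 26 genes by limma-voom, and 2 genes of each had an unadjusted p under 0.05. It was called for 3 of 21 basal cell genes, 3 of 14 genes of tuft cells, neuroendocrine cells and ionocytes and 3 of 20 transitional epithelium genes. In the club cell, goblet cell, smooth muscle and cardiac lists it was called for 2 genes each, and in the cartilage list for 1. In the adventitial fibroblast, collagen, interstitial macrophage, T cell and chemokine lists 6, 5, 7, 4 and 8 genes moved towards the parenchyma and 0 towards the airway, where 1, 2, 1, 0 and 1 had an unadjusted p under 0.05. In Bpifb1 and Ltf the gap was smaller under HDM (differences -1.49, adjusted p = 0.017, and -1.89, adjusted p = 0.002), and in Aqp3, a water and glycerol channel, it was 4.09 under PBS and 1.421 under HDM (difference -2.66, adjusted p = 0.0055). Marco was among the 4 genes called lower under HDM alone that also differed between the gaps (difference -1.20, adjusted p = 0.048), but this call was lost in 26 of 43 fits that left out 1 library, with a largest adjusted p of 0.075.

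**Figure D5:**
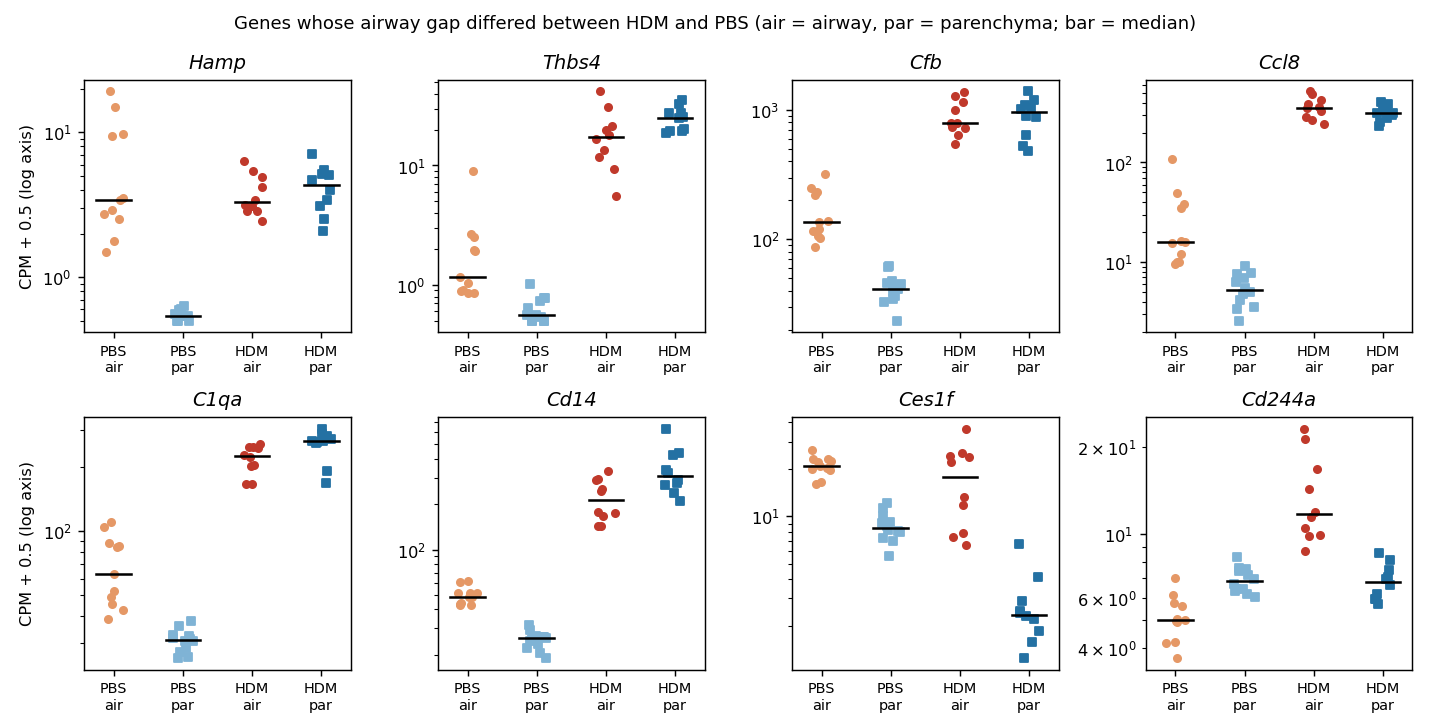
CPM plus 0.5 (log y axis) of Hamp, Thbs4, Cfb, Ccl8, C1qa, Cd14, Ces1f and Cd244a in each library of the 4 groups at 3 weeks, with a bar at the median. In the first 6 genes the PBS airway lies above the PBS parenchyma and the HDM groups overlap, and in Ces1f and Cd244a the HDM airway lies above the HDM parenchyma.

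After HDM to week 11, in other mice, the compartments were divided in the same direction with fewer calls. Values at 11 weeks come from a fit of all libraries of the series with 18528 genes, in which 549 genes were higher in the airway (2.96%) and 11 lower (0.0594%). Of the 1390 genes higher at 3 weeks 449 were called higher at 11 weeks (32.3%) and 1379 had the same sign. Of the genes lower at 3 weeks 3 were called (2.83%), Fabp1, Krt79 and Gm2694, and 100 had the same sign. The gap at 3 weeks against that at 11 weeks depended on the tool: limma-voom called 0 of 18528 genes (2041 at an unadjusted p under 0.05), while edgeR called 318. In the ciliated cell list 3 of 34 genes were called at 11 weeks, against 15 of 25 goblet cell genes, 10 of 25 club cell genes, 22 of 27 cardiac genes and 7 of 25 smooth muscle genes. Foxj1 had a log2FC of 0.82, adjusted p = 8.7e-05 at 11 weeks, Bpifa1 of 6.00, adjusted p = 4.4e-16, Muc5b of 1.88, adjusted p = 1.1e-08, Krt79 of -1.09, adjusted p = 0.0026 and Il1b of -0.55, adjusted p = 0.15.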

How the data were processed

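Total RNA of dissected mouse airway and parenchyma was sequenced by the authors. Per the labels, reads were processed with bcl2fastq 2.20.0.422, STAR 2.5.1b, RSEM 1.2.31 and kallisto 0.44.0 on mm10. The authors deposited one table of estimated counts (expected counts) per gene, not scaled for library size or gene length, and which quantifier made it is not given in the sources used here, nor is the strand of the reads. Of its nonzero values 20.3% were not whole, and all were rounded. It held 43346 identifiers, of which 42462 matched GENCODE M21 (GRCm38) without their version, and 23106 with it. Reads of near-identical genes are shared out by such quantifiers, so those genes are uncertain.

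With the study's tools, the 43 libraries of the 4 groups at 3 weeks were fitted with limma-voom (limma 3.58.1) and TMM factors (edgeR 4.0.16) in R 4.3.3, with one mean per group and Benjamini-Hochberg adjustment. Genes were kept where 9 or more libraries reached the CPM that 10 counts give in a library of median size, 1 of 2 readings of the stated filter, and called at an adjusted p under 0.05 with a log2FC of 1 or more in either direction. The difference of the compartment gaps was an interaction contrast, which shares its libraries with both gaps. Levels are TMM-normalized CPM, which were compared between groups and not between genes. Library precision is given as the spread over libraries, and a group with at most 3 counts in every library was treated as at the floor. Within each HDM group libraries differed by more than sampling noise. The fit was tested on simulated data.

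The 49 gene lists, with 926 tested members in all, were written by hand from general knowledge with earlier results of these data known, as was the choice of comparison, and a list is described by counts and medians without a set test. Named by rule were the 8 largest log2FC in each direction among called, non-overlapping protein-coding genes with a mean of at least 10 CPM in the higher group, the 2 smallest p-values in each direction, the 6 largest differences of gaps in each direction with at least 5 CPM in 1 group, genes called in opposite directions, and in each list the 4 members with the most reads, the largest called member and any called against the list's median. Other genes are said to have been chosen after their values were seen. Some genes that the rules name are not reported here.

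The alternatives tried were the quasi-likelihood test of edgeR, DESeq2 1.42.0, DESeq2 size factors, filters at a CPM of 10 and none, quality weights, all 203 libraries, the HDM libraries alone, a limma test against a log2FC of 1, and leaving out each library. Leaving out the 3 airway libraries highest or lowest on the first component and a block of consecutive library codes were added after the data were seen. Permutations and figures used Python 3.11.15 with scipy 1.17.1.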

Additional observations from a re-analysis of the deposited data

Results flagged for a closer look

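The genes of the report were each tested in the 10 HDM airway and the 10 HDM parenchyma libraries, and 16 of 306 groups held 1 library far from the others, where chance gives about 1 in 20. Of these 16, 10 lay among airway libraries, 9 of them in library X63, and 6 among parenchyma libraries. That library was the lowest for Sftpc at 1332 CPM, Sftpa1 at 1040 CPM, Lamp3 at 91.9 CPM, Atp6v0d2 at 29.5 CPM, Glp1r at 0.135 CPM, Ctsk at 108.5 CPM, Clec7a at 143.3 CPM and F7 at 7.58 CPM, and the highest for Clec10a at 60.5 CPM. The first 4 of these include 3 genes of type II cells, and Ctsk and Clec7a are genes of macrophages. Airway library X143 was the highest for Ccl19 at 63.6 CPM. In the parenchyma, library X64 was the highest for Lcn2 at 4870 CPM and Elf3 at 41.5 CPM and the lowest for Fabp1 at 1.39 CPM. Parenchyma library X184 was the highest for Adipoq at 0.290 CPM and Cdh19 at 0.0967 CPM, and parenchyma library X24 for Acan at 0.0369 CPM, all at very low counts.

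The compartment gap under HDM differed from that under PBS, by the interaction contrast, for 33 of the genes tested here. In log2 units the gap moved towards the parenchyma by -6.19 for Hamp, -4.95 for Eef1a2, -4.10 for Thbs4, -3.18 for Penk, -2.77 for Actn2, -2.76 for Apol6, -2.66 for Aqp3, -2.53 for Ccl11, -2.16 for Adam8, -2.05 for Timp1, -1.96 for Ccl8 and -1.93 for Ccl22. Smaller moves towards the parenchyma were those of Cfb and Ltf at -1.89 each, Cd14 at -1.62, Bpifb1 at -1.49, Acta2 at -1.43, C1qa and Apoe at -1.32 each, C1qb at -1.31, C1qc at -1.21, Marco at -1.20, C3 at -1.09, Ctsk at -1.03 and Mgp at -1.01. Towards the airway it moved by 2.37 for Fam3b, 1.70 for Slitrk6, 1.67 for Esm1, 1.56 for Chrm1 and Ces1f, 1.52 for Bex2, 1.48 for Cd244a and 1.45 for Col17a1. Mgp, Marco and Ctsk lost this call in 12, 26 and 7 of the 43 fits that left out 1 library, Acta2 in 7, Esm1 in 9, Col17a1 in 4 and Chrm1 in 3.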

How the results depend on the processing

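All shares here are percentages of the 17377 genes tested at 3 weeks. The genes called higher in the HDM airway made up 8.00%, and were 9.00% with edgeR, 8.81% with DESeq2, 2.73% with the stricter filter at a CPM of 10, another reading of the filter the study used, and 1.197% in the limma test against a log2FC of 1. Those called lower made up 0.610%, and were 0.317% with edgeR, 0.426% with DESeq2, 0.311% with the stricter filter, 0.927% with no filter, 0.932% in the fit of all libraries and 0% in the limma test against a log2FC of 1. Leaving out 1 library gave 6.74% to 8.68% higher and 0.311% to 0.944% lower (without airway libraries X63 and X183). Without the 3 airway libraries highest on the first component 4.85% were higher and 0.184% lower, and without the 3 lowest 1.69% were lower. These libraries were chosen by a score that follows the difference itself, so the direction of both changes is built in. Gaps moved towards the airway for 0.547%, and for 0.0460% with the stricter filter, 0.932% with no filter, 0.834% with quality weights, 0% in the limma test against a log2FC of 1 (0.765% by edgeR and 0.679% by DESeq2 against 0), 0.898% and 0.213% without those 3 lowest and highest libraries, and 0.265% to 0.662% with 1 library left out. In genes, the 95 were 59, 54, 57, 49, 46 and 57 without HDM airway library X3, X43, X63, X83, X123 and X143, and 56 and 60 without HDM parenchyma library X64 and X184. Gaps moved towards the parenchyma for 1.66%, and for 2.51% with edgeR, 3.21% with DESeq2, 0.765% with the stricter filter, 0.00575% in the limma test against a log2FC of 1 and 1.35% to 2.04% with 1 library left out. At 11 weeks 0.0594% of 18528 genes were called lower, and 0.340% with edgeR. Of the 926 tested members of any list 22.2% were called higher and 2.81% lower, which became 14.1% and 1.08% without the 3 highest airway libraries, and 7.78% lower without the 3 lowest, with 19.1% to 23.3% higher and 1.62% to 4.64% lower when 1 library was left out. In genes, the 26 lower were 16, 16, 15, 43 and 41 without airway library X63, X83, X123, X103 and X183. The cause was not tested. The first principal component separated the groups under each alternative, and no gene named changed its direction while called. With consecutive codes as a replicate block, chosen after the data were seen, 8.74% were higher and 0.403% lower in the HDM airway, and gaps moved for 0.748% towards the airway and 2.76% towards the parenchyma. Of the genes called without the block 98.1% of the higher and 59.4% of the lower were called with it. Chil3 and Cd244a gained a call, and Cdh16, Nos2, Acod1 and Cxcl3 lost theirs, as Mgp did for its gap. Deviations of paired libraries from their group means had an r of 0.0260 to 0.415 in 10 HDM pairs (9 over 0.1) and of -0.217 to 0.319 in 11 PBS pairs (6 over 0.1). The median r of pairs was 0.2525 under HDM and 0.1208 under PBS. Between libraries of other codes it was -0.0397 and -0.0156. In HDM pairs 7 of 10 airway and 6 of 10 parenchyma libraries correlated best with their own neighbour, and in PBS pairs 6 and 3 of 11. No label ties these codes to a mouse.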
